A study of Mus musculus and Homo sapiens with 20 samples.

Results

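The genes described here encode the subunits of the proteasome, its activators and assembly factors, the polyubiquitin precursor UBB and the transcription factor NFE2L1. They were chosen by name, as 43 symbols looked up in the gene symbol column of each count table with case ignored. All 43 were found among the 63568 genes of the K562 table and among the 43626 genes of the MEF and HPC-7 tables. After a filter on low counts, 43 of 13456 tested genes in K562, 41 of 12340 in MEF and 43 of 11703 in HPC-7 were members. Psmb8 and Psmb9 did not pass the filter in MEF and are described there from their counts.

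RNA-seq compared cells treated with NVP-AUY922 (HSP90i), a small molecule that binds the ATP site of HSP90 chaperones, with Control cells, whose count columns carry the name of the solvent DMSO. The 3 lines were K562 (human, from a chronic myeloid leukaemia) at 300 nM, MEF (mouse embryonic fibroblasts) at 200 nM and HPC-7 (a mouse blood precursor line) at 50 nM, all for 16 h, with 3 HSP90i and 3 Control libraries in each. Line and dose therefore changed together and cannot be told apart, and each result comes from 1 line at 1 dose and 1 time. Nothing in the labels says that the libraries of a group came from separate cultures. The p-values therefore reflect only how much these samples vary, and part of that variation may be technical.

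The proteasome is the main protease of the cytosol and nucleus. Proteins tagged with ubiquitin chains are bound and unfolded by the 19S regulatory particle, made of a base with an ATPase ring and a lid that removes the ubiquitin, and are cut inside the 20S core, made of outer alpha rings and inner beta rings. When proteasome capacity falls short, NFE2L1 (also called NRF1) is processed to an active factor that raises transcription of many subunit genes together, and heat shock raises transcription of ubiquitin. HSP90 inhibitors lead to the ubiquitination and proteasomal breakdown of many HSP90 client proteins.

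The K562 libraries held 7936066 to 10950573 counts, the MEF libraries 10542305 to 22872539 and the HPC-7 libraries 10131491 to 16859394. A level is given in CPM, the count relative to a library's total after TMM scaling, and is compared only within a gene. Fold changes are log2 of HSP90i over Control with the standard error (SE), n = 3 per group. A gene is called when its adjusted p is below 0.05 in the quasi-likelihood test of edgeR, adjusted over all genes tested by the Benjamini-Hochberg method, and every adjusted p below comes from that test. Fibroblast markers summed to between 27240 and 28210 CPM in MEF HSP90i libraries and between 23534 and 24672 CPM in MEF Control libraries. Of these 7 markers, 3 were called higher and 3 lower in MEF, with a median log2 fold change of -0.12. Blood precursor markers, Kit and Ptprc among them, summed to between 3794 and 4145 CPM in HPC-7 HSP90i libraries and between 2440 and 2496 CPM in HPC-7 Control libraries. In K562, erythroid markers summed to between 787 and 932 CPM in HSP90i libraries and between 784 and 1140 CPM in Control libraries, with GATA1 called lower (-0.90). Blood precursor markers summed to between 592 and 621 CPM in K562 HSP90i libraries and between 869 and 904 CPM in K562 Control libraries, with GATA2 (-1.85) and RUNX1 (-1.01) called lower.

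The 3 lines gave different pictures. In HPC-7, 37 of the 43 members fell and 1 rose, where 36.6% of all genes tested fell, 36.5% rose and 73.1% were called in either direction. In MEF, 13 of 41 members rose and 13 fell, 31.7% each, beside 35.1% and 38.2% of all genes and 73.4% in either direction. In K562, 1 member rose and 1 fell, where 5.11% of all genes rose and 5.97% fell, 11.1% in all. The median log2 fold change of the members was -0.67 in HPC-7, where that of all genes was -0.0024. It was 0.03 in MEF and 0.01 in K562, where all genes had medians of -0.01 and -0.02. Groups that did not overlap gave the same picture. In HPC-7, 38 members lay below and 1 above every Control library, beside 38.9% and 38.5% of all genes. In MEF, 13 lay below and 14 above, beside 39.3% and 37% of all genes. In K562, 2 lay below and 7 above, beside 17.8% and 17.4% of all genes.

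**Figure D1:**
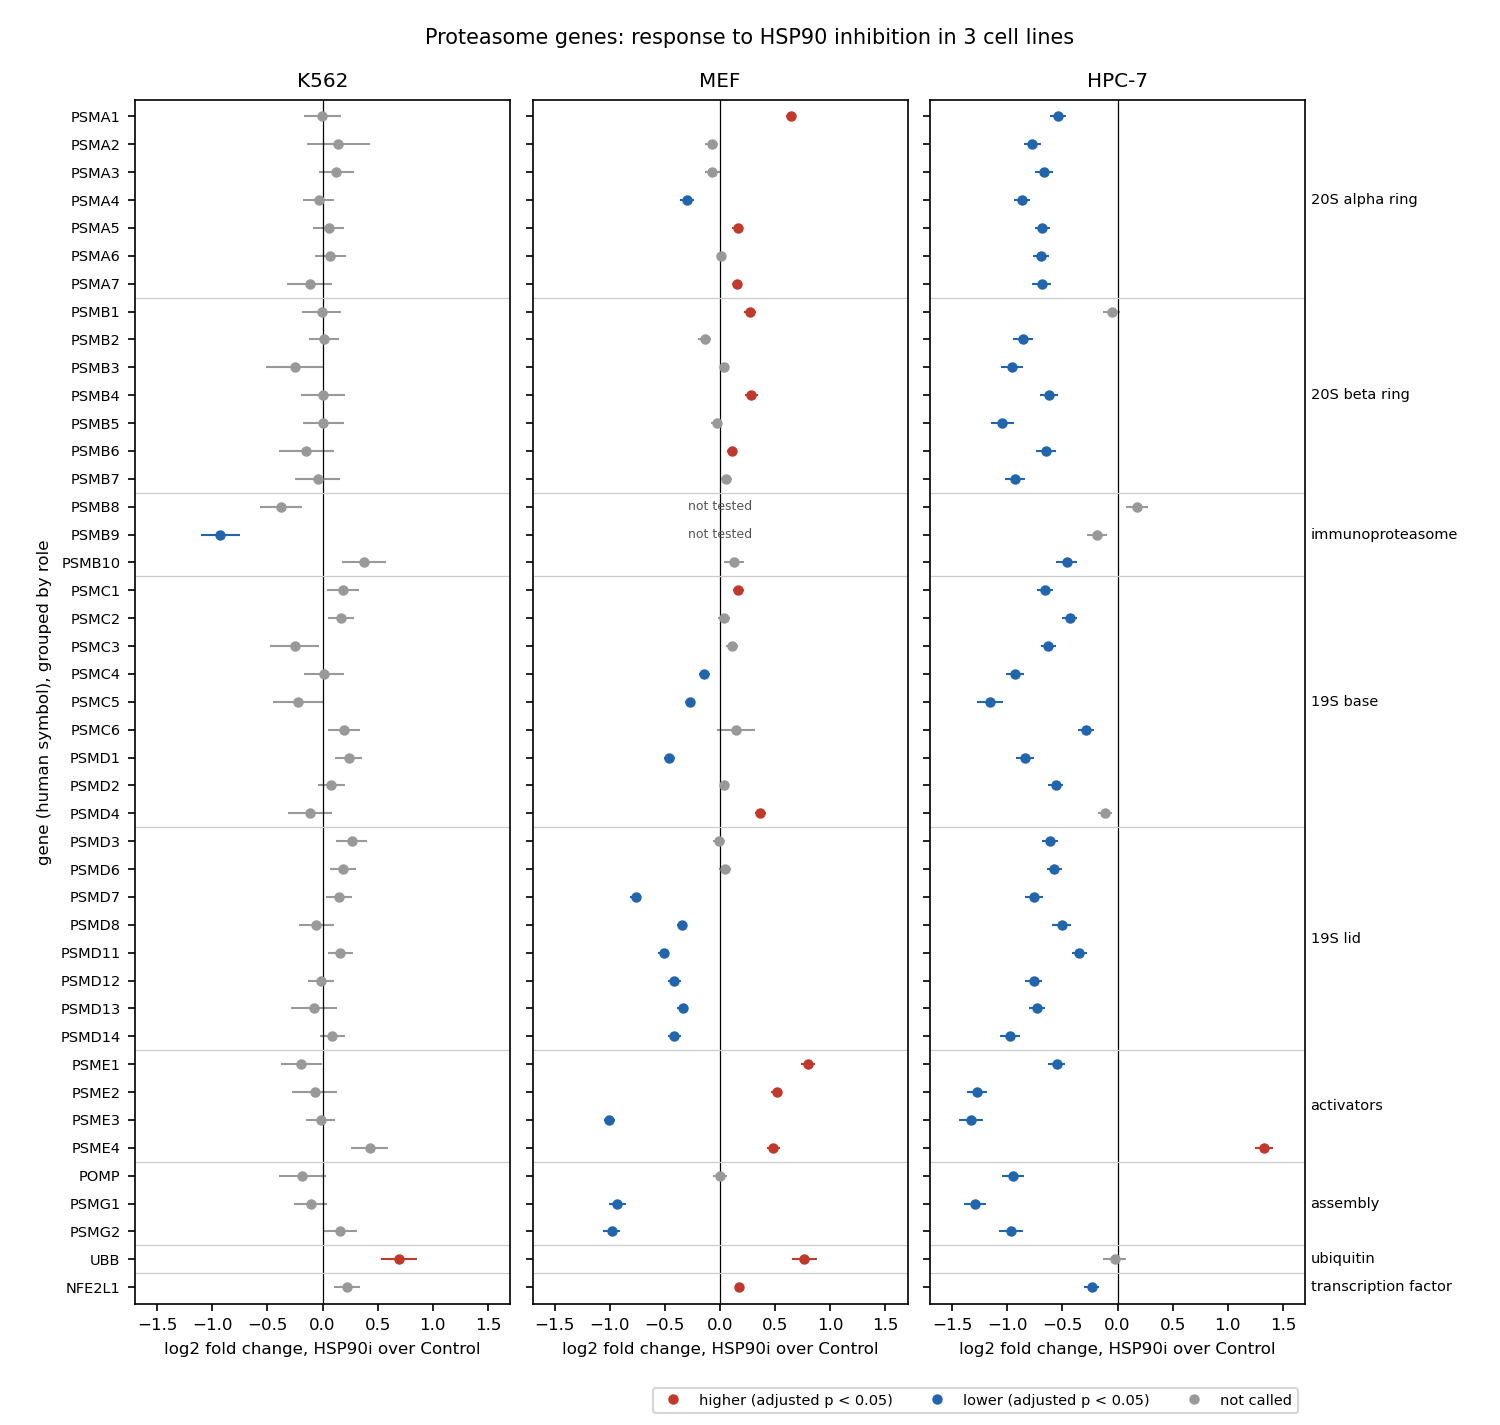
Log2 fold change (HSP90i over Control, horizontal axis) of each member in K562, MEF and HPC-7, grouped by role in the complex. Points are estimates and bars standard errors, with members called higher in red, called lower in blue and not called in grey. Blue points number 37 in HPC-7, 13 in MEF and 1 in K562.

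The 14 constitutive subunits of the 20S core, the proteolytic chamber, fell almost throughout in HPC-7. All 7 alpha subunits and 6 of the 7 beta subunits were called lower, beside 36.6% of all genes tested. The median log2 fold change over the 14 was -0.69. Psmb5, the chymotrypsin-like protease of the beta ring, had 38.9, 40.1 and 31.0 CPM in HPC-7 HSP90i libraries, against 72.7, 73.3 and 80.8 CPM in Control libraries. The groups did not overlap, and the log2 fold change was -1.04 ± 0.10 (adjusted p = 1.12e-05). Psmb3 (-0.96), Psmb7, the trypsin-like protease (-0.93), Psma4 (-0.87) and Psmb2 (-0.86) followed in size on the log2 scale. Psmb1 was the exception in the ring, with 194, 178 and 174 CPM in HSP90i libraries, against 190.1, 179 and 198 CPM in Control libraries, which overlapped (-0.05, adjusted p = 0.525).

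In MEF the same 14 core genes had 6 called higher and 1 called lower, where 35.1% and 38.2% of all genes tested were. The largest change was in Psma1, an alpha subunit, with 210.2, 205 and 217 CPM in HSP90i libraries, against 137, 136 and 131 CPM in Control libraries. All HSP90i values lay above all Control values, and the log2 fold change was 0.64 ± 0.05 (adjusted p = 2.52e-06). Psmb4 (0.28), Psmb1 (0.27), Psma5 (0.16), Psma7 (0.15) and Psmb6, the caspase-like protease (0.11), rose by less, and Psma4 fell by 0.30. Among these, Psmb6 lost its call with no filter on low counts (adjusted p = 0.138), with DESeq2 (0.0579) and without 5 of the 6 libraries in turn. Psma5 and Psma7 lost theirs without HSP90i replicate 2 (0.0527 and 0.0517 by edgeR), and Psma5 also without Control replicate 1 (0.0516). Psmb5, which fell in HPC-7, was not called in MEF (-0.03, adjusted p = 0.582).

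In K562 none of the 14 core genes was called, and their log2 fold changes lay between -0.25 and 0.14. PSMB3 was the lowest at -0.25 (adjusted p = 0.593). PSMB5 stood at 0.01 (adjusted p = 0.985).

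The promoter of Psmb5 is shown because this catalytic gene fell in HPC-7 and its window holds a match to GAANNTTC and to TGACNNNGC, though none to the TTCNNGAA and CCAAT that were also searched for. It is the RefSeq window of GRCm38.p6 at chr14:54617994-54618245 on the minus strand, from 250 bases before the gene's start and printed as far as the start, 5′ to 3′. Capitals mark GAACATTC, a match to the heat shock pair GAANNTTC, 242 bases before the start, and TGACGTCGC, a match to the NFE2-type element TGACNNNGC, 47 bases before it.
Psmb5: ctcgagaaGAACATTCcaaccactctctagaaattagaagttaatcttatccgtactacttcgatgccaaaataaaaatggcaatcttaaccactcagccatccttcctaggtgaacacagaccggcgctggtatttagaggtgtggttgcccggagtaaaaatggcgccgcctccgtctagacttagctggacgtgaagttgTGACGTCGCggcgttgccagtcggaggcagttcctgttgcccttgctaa
The search covered both strands from 250 bases before to 50 bases after each start, and the heat shock pairs and the other motifs were counted separately where they overlapped. GAANNTTC was found in 2 of the 36 members with a window in the RefSeq table, or 5.56%, against 9.04% of 27025 genes with a window. For TTCNNGAA, the same pair in the other order, it was 2 members, or 5.56%, against 9.60% of genes. For TGACNNNGC it was 6 members, Psmb5, Psmb6, Psmc6, Psmd12, Psme4 and Ubb, or 16.7%, against 14.0% of genes, and for CCAAT 38.9% against 41.1%. Among the members with TGACNNNGC, Psmb5 (-1.04), Psmd12 (-0.76), Psmb6 (-0.65) and Psmc6 (-0.29) fell in HPC-7, where 36.6% of all genes tested fell. Ubb was not called there (-0.02) and Psme4 rose (1.33). A match describes the letters in the window and shows no binding, and no match says only that these letters are not in it.

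The 19S base holds the ATPases PSMC1 to PSMC6, the scaffolds PSMD1 and PSMD2 and the ubiquitin receptor PSMD4. In HPC-7, 8 of its 9 members fell, beside 36.6% of all genes tested. Psmc5 changed most, with 39.6, 49.2 and 35.2 CPM in HSP90i libraries, against 84.3, 95.7 and 95.5 CPM in Control libraries. No value was shared between the groups, and the log2 fold change was -1.15 ± 0.12 (adjusted p = 1.3e-05). Psmc4 (-0.93) and Psmd1 (-0.84) came next. The receptor gene Psmd4 was not called, although its 116, 111 and 112 CPM in HSP90i libraries all lay below the 122, 121 and 123 CPM of Control libraries (-0.11, adjusted p = 0.139).

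In MEF the base had 2 members called higher and 3 called lower, where 35.1% and 38.2% of all genes tested were. Psmd4 rose, with 179, 178 and 188 CPM in HSP90i libraries, against 137, 139 and 147 CPM in Control libraries, without overlap (0.37 ± 0.05, adjusted p = 0.000139). Psmd1 fell by 0.46 on the log2 scale and Psmc5 by 0.27. Psmc1 (0.17) and Psmc4 (-0.14) changed by little. The call of Psmc4 was lost with RLE factors (adjusted p = 0.0892 by edgeR), library size alone (0.0708), upper quartile factors (0.546), DESeq2 (0.173), the joint mouse fit (0.755) and without 5 of the 6 libraries in turn, that of Psmc1 without Control replicate 1 (0.0569) and that of Psmc5 in the joint mouse fit (0.153). In K562 no base gene was called, and PSMC3, the lowest, had a log2 fold change of -0.25 (adjusted p = 0.507).

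The 19S lid was lower in both mouse lines. All 8 of its genes were called in HPC-7, with a median log2 fold change of -0.67, and 6 of 8 in MEF, with a median of -0.38. Over all genes tested, 36.6% were called lower in HPC-7 and 38.2% in MEF. Psmd7, a structural partner of the lid's deubiquitinase, had 129.8, 131 and 129 CPM in MEF HSP90i libraries, against 213, 213 and 236 CPM in Control libraries, and the groups stood well apart (-0.77 ± 0.05, adjusted p = 2.2e-06). In HPC-7 it changed by nearly the same amount, -0.76 (adjusted p = 1.44e-05). Psmd11, a lid scaffold subunit, had 107, 110.3 and 115 CPM in MEF HSP90i libraries, against 154, 162 and 156 CPM in Control libraries, without overlap (-0.51 ± 0.05, adjusted p = 1.62e-05). Psmd14, the deubiquitinase itself, fell by 0.42 in MEF and by 0.97 in HPC-7, and Psmd12 by 0.41 and 0.76. Psmd3 (-0.01) and Psmd6 (0.05) were the lid genes not called in MEF. In K562 the lid had no call, and its log2 fold changes ran from -0.08 to 0.26.

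Taking core, base and lid together, 31 constitutive subunits, 29 fell and 0 rose in HPC-7, while 10 fell and 8 rose in MEF. Over all genes tested, 36.6% fell and 36.5% rose in HPC-7, and 38.2% fell and 35.1% rose in MEF. In either direction, 58.1% of the 31 were called in MEF, beside 73.4% of all genes. In K562, 11.1% of all genes were called. In K562, edgeR called 0 of the 31, whose fold changes lay between -0.25 and 0.26 with standard errors of 0.11 to 0.29. Their summed level was 2953, 3077 and 2821 CPM in HPC-7 HSP90i libraries, against 4507, 4526 and 4723 CPM in Control libraries, and the groups did not overlap. It was 5298, 5303 and 5438 CPM in MEF HSP90i libraries, against 5404, 5403 and 5612 CPM in Control libraries, which overlapped. In K562 it was 5012, 5317 and 4831 CPM in HSP90i libraries, against 6126, 4556 and 4401 CPM in Control libraries, so 1 Control library lay above and the other Control libraries below all HSP90i libraries.

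**Figure D2:**
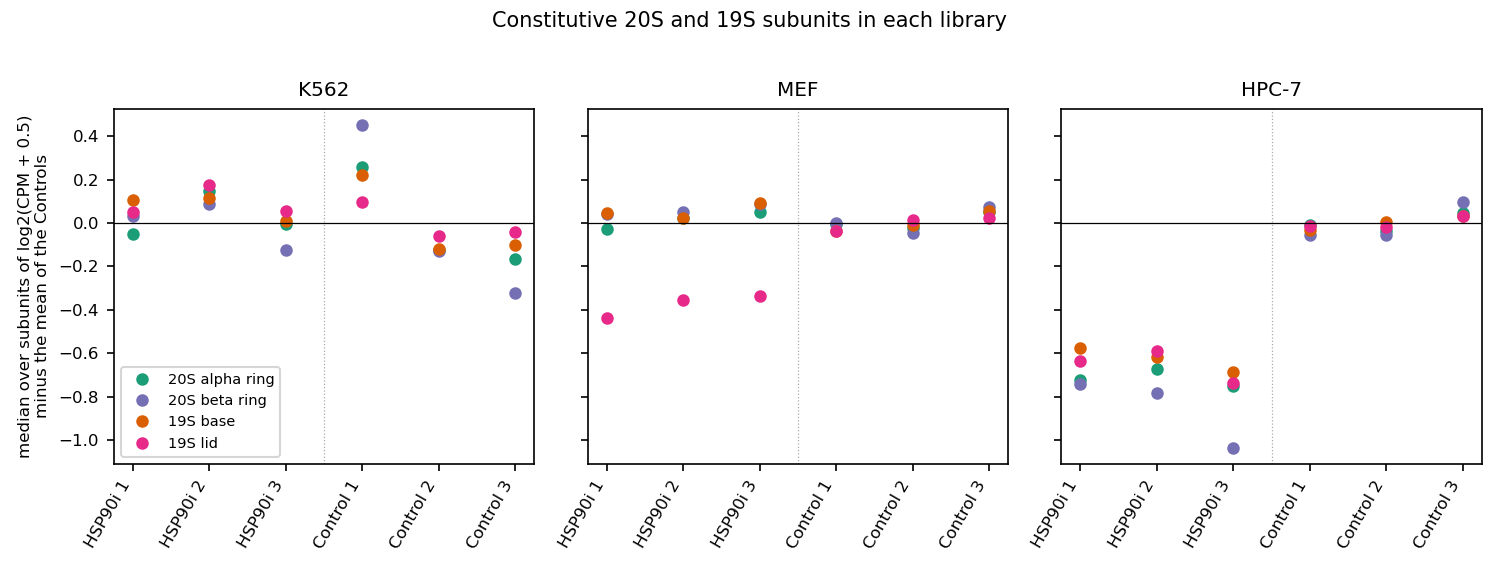
Median deviation of the constitutive subunits from their Control mean (vertical axis, log2 of CPM plus 0.5) in every library, 1 point for each of the alpha ring, beta ring, base and lid, with HSP90i libraries left of Control libraries in each line. In HPC-7 all points of HSP90i libraries lie below those of Control libraries, in MEF only the lid points do so, at -0.44, -0.36 and -0.34, and in K562 the beta ring of Control replicate 1 is highest at 0.45.

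That K562 library, Control replicate 1, bears on every K562 value given here. Over all members its median deviation from the Control mean was 0.27 on the log2 scale, with 37 of 43 members above the mean, against -0.11 and -0.16 in Control replicates 2 and 3. Without it, 9 of 43 members were called higher and 1 lower, where 14.0% and 14.6% of the 13709 genes then tested were, 28.6% in all. The members' median log2 fold change was then 0.20, beside 0.0033 for all genes. The 8 members called only then were PSMB4 (0.27), PSMB10 (0.56), PSMC1 (0.31), PSMC2 (0.23), PSMC4 (0.25), PSMD3 (0.38), PSME4 (0.28) and PSMG2 (0.31), beside UBB. Over all genes the calls numbered 3917 without this library and 1491 with it.

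The inducible catalytic subunits, PSMB8, PSMB9 and PSMB10, replace the constitutive proteases in the immunoproteasome, which makes peptides for antigen presentation. In K562, PSMB9 fell, with 3.79, 3.70 and 3.78 CPM in HSP90i libraries, against 7.58, 7.16 and 6.69 CPM in Control libraries. The groups did not overlap, and the log2 fold change was -0.93 ± 0.18 (adjusted p = 0.0149). These levels rest on 40, 37 and 34 counts in HSP90i libraries and 77, 83 and 56 counts in Control libraries. The call was lost without any 1 of the 3 HSP90i libraries (adjusted p from 0.0794 to 0.0878) and without Control replicate 2 (0.0637), the log2 fold change staying between -0.97 and -0.88. PSMB8 had 19.3, 18.2 and 15.7 CPM in K562 HSP90i libraries, against 29.3, 19.7 and 20.3 CPM in Control libraries, with no overlap but no call (-0.38, adjusted p = 0.244). PSMB10 had 10.5, 12.3 and 12.5 CPM in HSP90i libraries, against 11.2, 8.63 and 7.17 CPM in Control libraries, which overlapped (0.38, adjusted p = 0.269).

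In MEF, Psmb8 and Psmb9 were close to the limit of detection and were higher in HSP90i libraries. Psmb8 had 26, 8 and 15 counts in HSP90i libraries, against 3, 3 and 2 counts in Control libraries, a depth-adjusted ratio of 6.28 with a 95% interval of 2.95 to 15.4 for counting error only. Psmb9 had 18, 7 and 9 counts in HSP90i libraries, against 2, 1 and 1 counts in Control libraries, a ratio of 8.72 (95% interval 3.11 to 33.8). Fitted with no filter on low counts, over 20447 genes, both were called, with adjusted p = 0.000376 for Psmb8 and 0.000384 for Psmb9 by edgeR. Psmb10 had 16.3, 17.5 and 16.3 CPM in MEF HSP90i libraries, against 16.4, 13.5 and 15.5 CPM in Control libraries, which overlapped (0.13, adjusted p = 0.249).

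In HPC-7 the order was different. Psmb10 fell, with 38.3, 33.3 and 30.9 CPM in HSP90i libraries, against 46.9, 45.2 and 49.1 CPM in Control libraries, without overlap (-0.46 ± 0.10, adjusted p = 0.00148). Psmb8 had 30.8, 28.5 and 26.3 CPM in HSP90i libraries, against 23.3, 25.9 and 26.7 CPM in Control libraries (0.18, adjusted p = 0.123). Psmb9 had 22.8, 24.6 and 21.3 CPM in HSP90i libraries, against 26.9, 26.5 and 24.5 CPM in Control libraries (-0.19, adjusted p = 0.0978). Both overlapped between groups.

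The activators bind the ends of the 20S core in place of the 19S particle, and they diverged from each other. PSME1 and PSME2 form the PA28 ring induced by interferon, PSME3 forms the nuclear PA28 gamma ring, and PSME4 encodes PA200, a nuclear activator. Psme4 was the member that rose in both mouse lines. It had 329, 314 and 377 CPM in HPC-7 HSP90i libraries, against 143, 133 and 129.6 CPM in Control libraries, and no HSP90i value came near the Control range (1.33 ± 0.09, a 2.51-fold increase, adjusted p = 9.33e-07). In MEF it had 196, 181 and 189 CPM in HSP90i libraries, against 138, 142 and 126 CPM in Control libraries, again without overlap (0.48 ± 0.06, adjusted p = 8.53e-05). In K562, PSME4 had 146, 143 and 160.1 CPM in HSP90i libraries, against 87, 115 and 133 CPM in Control libraries. The K562 groups did not overlap, and the change of 0.43 ± 0.17 was not called (adjusted p = 0.142). The smallest adjusted p among the 41 members not called in K562 was that of PSME4.

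Psme3 went the other way. It had 75.4, 77.7 and 72.7 CPM in MEF HSP90i libraries, against 144, 152 and 156 CPM in Control libraries, a log2 fold change of -1.003 ± 0.05 (adjusted p = 3.99e-07). In HPC-7 it had 88.5, 107 and 77.2 CPM in HSP90i libraries, against 226, 222 and 236 CPM in Control libraries (-1.33 ± 0.11, adjusted p = 3.1e-06). The groups stood apart in both lines, and this was the largest decrease of any member in each. In K562, PSME3 was not called (-0.02, adjusted p = 0.951).

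Psme1 and Psme2 rose in MEF and fell in HPC-7. Psme1 had 75.3, 75.2 and 67.6 CPM in MEF HSP90i libraries, against 40.0, 42.3 and 43.7 CPM in Control libraries (0.80 ± 0.06, adjusted p = 6.13e-06). In HPC-7 it had 85.2, 88.5 and 76.0 CPM in HSP90i libraries, against 120.0, 119 and 128 CPM in Control libraries (-0.55, adjusted p = 0.000117). Psme2 had 78.8, 79.8 and 76.0 CPM in MEF HSP90i libraries, against 53.5, 56.2 and 54.9 CPM in Control libraries (0.51 ± 0.05, adjusted p = 1.93e-05). Neither gene's groups overlapped in either line. In HPC-7, Psme2 had 33.3, 36.6 and 29.6 CPM in HSP90i libraries, against 80.5, 77.3 and 82.5 CPM in Control libraries (-1.27 ± 0.09, adjusted p = 1.6e-06). The 2 genes lie 5912 bp apart on chromosome 14 of GRCm38.p6, at 55578494 to 55581527 for Psme1 and 55587440 to 55591101 for Psme2. Neither was called in K562, with log2 fold changes of -0.19 for PSME1 and -0.07 for PSME2.

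**Figure D3:**
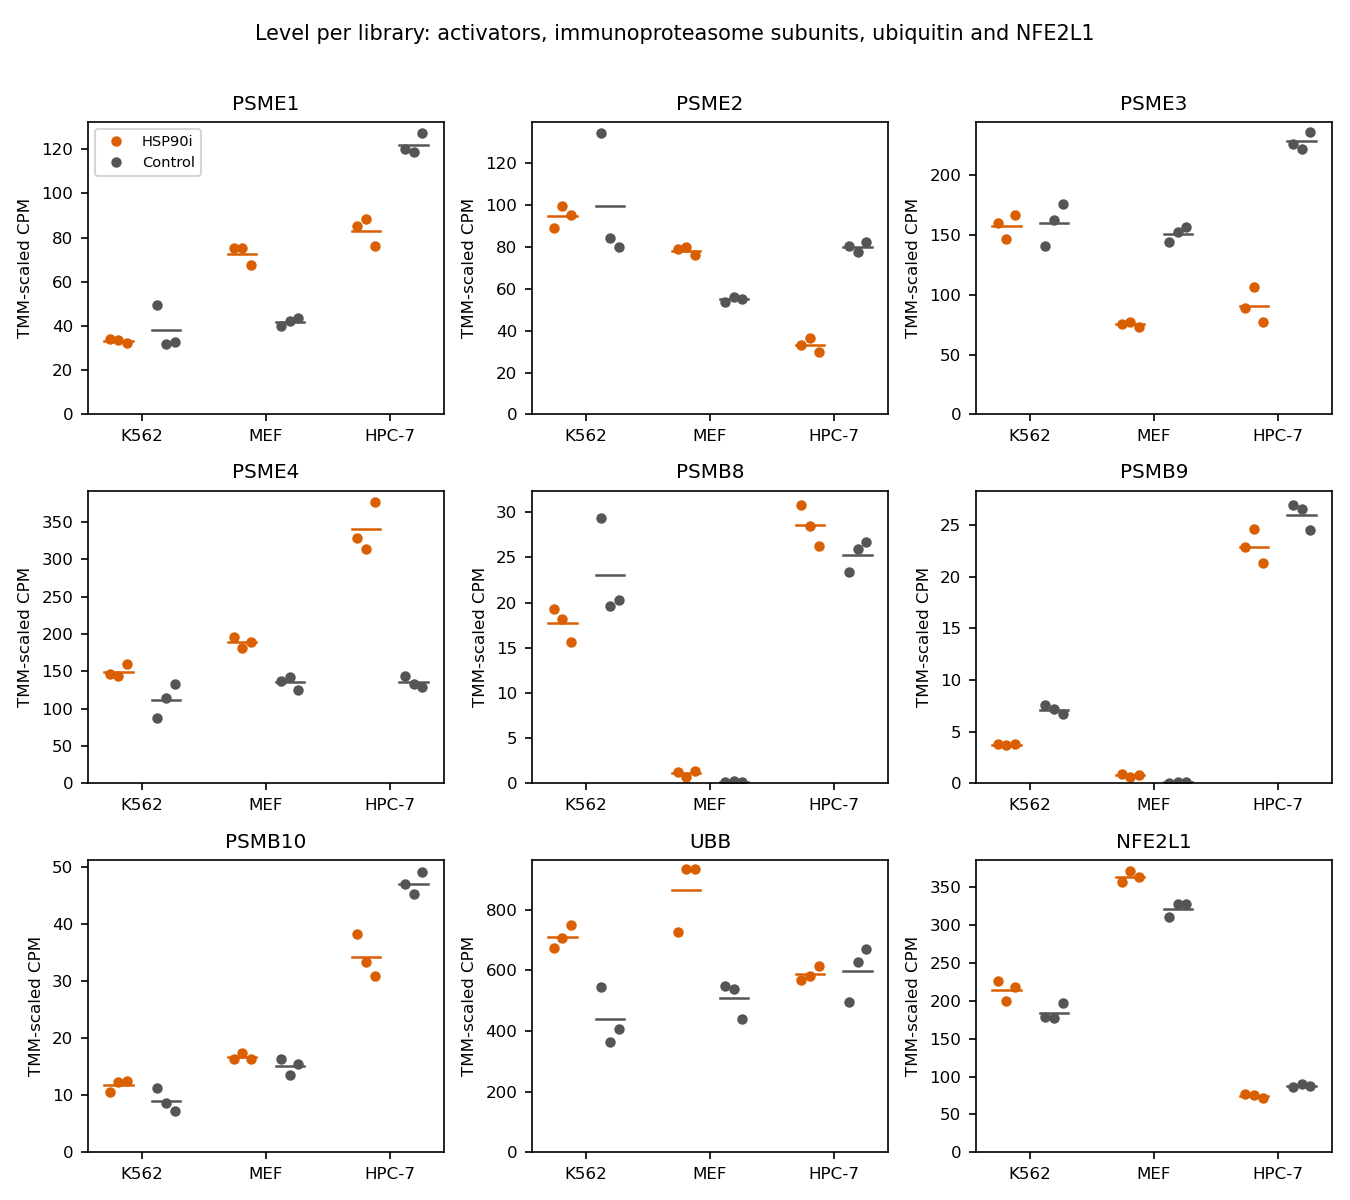
Levels (TMM-scaled CPM, linear axes from 0, horizontal bars for group means) of the activators, the inducible catalytic subunits, UBB and NFE2L1 in every library, HSP90i left of Control in each line. Psme4 in HPC-7 lies at 314 to 377 CPM in HSP90i libraries and at 129.6 to 143 CPM in Control libraries, while Psme3 is lower in HSP90i libraries of both mouse lines.

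Psme4 and Psme3 moved in opposite directions in both mouse lines, so their RefSeq promoter windows (GRCm38.p6, plus strand, from 250 bases before the start) are printed together. Psme4 is at chr11:30771525-30771776, and its capitals mark GCAGCGTCA, the reverse strand of TGACNNNGC. This match begins 7 bases before the start and runs across it. Psme3 is at chr11:101315963-101316214, and its capitals mark TTCCAGAA, a match to TTCNNGAA, 241 bases before the start. Matches to CCAAT are not capitalised, and Psme3 holds one on the reverse strand, ATTGG, 14 bases before the start.
Psme4: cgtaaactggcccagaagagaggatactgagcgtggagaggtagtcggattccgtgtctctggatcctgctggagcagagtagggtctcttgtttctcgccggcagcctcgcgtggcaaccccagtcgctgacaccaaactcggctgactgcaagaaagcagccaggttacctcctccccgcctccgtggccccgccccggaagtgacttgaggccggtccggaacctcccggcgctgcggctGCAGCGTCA
Psme3: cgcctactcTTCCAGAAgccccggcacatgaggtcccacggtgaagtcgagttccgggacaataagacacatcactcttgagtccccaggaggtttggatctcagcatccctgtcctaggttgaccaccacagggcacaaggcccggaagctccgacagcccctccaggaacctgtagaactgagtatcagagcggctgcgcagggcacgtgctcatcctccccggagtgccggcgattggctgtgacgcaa
Psme4 holds no match to either heat shock pair, and Psme3 none to TGACNNNGC, in these windows. The transcribed span of Psme4, from 30771775 to 30881150 on chromosome 11, overlaps the protein-coding gene Erlec1 and the predicted gene Gm12103, and that of Psme1 overlaps Emc9. Of the 43 mouse members, 11 overlap another annotated gene and 4 a protein-coding one. No source used here says whether reads were counted by strand. Such genes could therefore share reads.

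All 3 assembly factors fell in HPC-7 and 2 of the 3 in MEF, beside 36.6% and 38.2% of all genes tested. PSMG1 and PSMG2 encode the PAC1 and PAC2 chaperone pair, which builds the alpha ring, and POMP the factor that matures the half-core. Psmg1 had 13.9, 14.0 and 12.3 CPM in MEF HSP90i libraries, against 24.9, 25.2 and 26.8 CPM in Control libraries (-0.93 ± 0.08, adjusted p = 1.01e-05). In HPC-7 it had 17.2, 19.7 and 15.5 CPM in HSP90i libraries, against 43.2, 42.5 and 42.2 CPM in Control libraries (-1.29 ± 0.10, adjusted p = 2.35e-06). Psmg2 had 16.1, 14.9 and 16.6 CPM in MEF HSP90i libraries, against 30.2, 31.1 and 33.2 CPM in Control libraries (-0.98 ± 0.08, adjusted p = 4.54e-06). The pair thus fell in both lines with no overlap of groups, Psmg2 by 0.97 in HPC-7 (adjusted p = 2.05e-05).

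Pomp separated the mouse lines. It had 73.8, 64.4 and 57.6 CPM in HPC-7 HSP90i libraries, against 129, 117 and 132 CPM in Control libraries (-0.95 ± 0.10, adjusted p = 1.44e-05). In MEF it had 105, 108 and 96.1 CPM in HSP90i libraries, against 107, 96 and 106 CPM in Control libraries, fully overlapping (adjusted p = 0.963). In K562, POMP had 99.4, 110.4 and 84.6 CPM in HSP90i libraries, against 148, 103 and 82.5 CPM in Control libraries, which overlapped (-0.18 ± 0.22, adjusted p = 0.643). PSMG1 and PSMG2 were not called in K562, at -0.10 and 0.16.

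The polyubiquitin gene UBB, which encodes ubiquitin units in tandem and is induced by stress, rose in K562 and MEF. It had 673, 706 and 749 CPM in K562 HSP90i libraries, against 546, 363 and 406 CPM in Control libraries (0.69 ± 0.16, adjusted p = 0.0317). In MEF it had 728, 933 and 936 CPM in HSP90i libraries, against 548, 539.6 and 439 CPM in Control libraries (0.77 ± 0.11, adjusted p = 0.000313). The groups did not overlap in either line. In HPC-7 it had 568, 581 and 616 CPM in HSP90i libraries, against 497, 627 and 672 CPM in Control libraries, with the HSP90i values inside the Control range (-0.02 ± 0.11, adjusted p = 0.843). The K562 call was lost with upper quartile factors (adjusted p = 0.0533) and without any 1 of the 3 HSP90i libraries (0.107 to 0.136), Control replicate 2 (0.116) or Control replicate 3 (0.0532). Ubiquitin units are near identical between loci, and the K562 table lists 32 genes named as pseudogenes of members, 5 of them with counts, so reads of such copies could be split.

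NFE2L1, the factor that raises subunit genes, changed little. Its log2 fold change was 0.18 ± 0.04 in MEF (adjusted p = 0.00452), from levels of 356, 371 and 363 CPM in HSP90i libraries, against 310.0, 327 and 327 CPM in Control libraries. In HPC-7 it was lower, with 77.0, 75.4 and 72.2 CPM in HSP90i libraries, against 86.5, 90.2 and 88.0 CPM in Control libraries (-0.24 ± 0.07, adjusted p = 0.0102). Neither line's groups overlapped. In K562 it had 226, 199 and 219 CPM in HSP90i libraries, against 178, 177 and 197 CPM in Control libraries, without overlap and without a call (0.22 ± 0.12, adjusted p = 0.279). These values are transcript levels, and NFE2L1 is known to be controlled mainly through its protein.

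Whether members responded differently in the mouse lines was tested by an interaction term fitted to all 12 mouse libraries. The MEF response lay above the HPC-7 response for 38 of 43 members and below it for 1, where 25.4% and 17.8% of the 13720 genes tested did so. Psmb8 and Psmb9, among the 38, did not pass the filter in MEF and entered this fit only through HPC-7, where they are higher. Over the 41 members tested in each line separately, it lay above for 36 and below for 1, where 32.1% and 21.2% of the 10371 genes tested in both did so. Over all 43, the members' median difference was 0.74 on the log2 scale, beside 0.11 for all genes, a shift that comes with the scaling. Under the other scalings and settings the members' median lay between 0.54 and 0.80 and that of all genes between -0.11 and 0.14. The estimates for Psmb9 (3.30 ± 0.40) and Psmb8 (2.52 ± 0.39) rest on Control counts of 1 to 3 per MEF library, and no call is read from them. Of the 41 members, Psme2 (1.90 ± 0.10, adjusted p = 7.66e-09) and Psme1 (1.47 ± 0.11) had the largest differences, and Psma1 differed by 1.30. Psme4 was the reverse case, rising more in HPC-7 than in MEF (-0.73 ± 0.11, adjusted p = 8.97e-05). The calls of Psmc6, Psme3, Psmg1, Psmb1, Psmd1 and Psmd12 were lost under at least 1 of the other settings or without 1 of the HPC-7 Control libraries. The 4 members with no call were Psmd7 (0.11), Psmd8 (0.28), Psmd11 (-0.05) and Psmg2 (0.10), 3 lid genes and 1 assembly factor.

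Read line by line, 9 members were called higher in MEF and lower in HPC-7, as were 516 of the 10371 genes tested in both lines, 22.0% of the 41 members and 4.98% of genes. Another 13 members were lower in both lines, 31.7% beside 26.1% of genes, and 1 was higher in both, 2.44% beside 19.9%. Called in HPC-7 and not in MEF were 15 members, 36.6% beside 16.9% of genes. In HPC-7, markers of other states moved with these changes. The 4 erythroid markers tested rose and summed to between 784 and 930 CPM in HSP90i libraries, against 380.3 to 391 CPM in Control libraries. The blood precursor markers had 4 higher and 2 lower of 7. Macrophage markers summed to between 67.1 and 81.0 CPM in HSP90i libraries, against 35.0 to 39.3 CPM in Control libraries, nearly all of it Lyz2. The endothelial list summed to between 40.2 and 50.4 CPM in HSP90i libraries, against 7.41 to 9.35 CPM in Control libraries, nearly all of it Pecam1, with Cdh5 and Kdr at or near 0. The part of these markers in the members' decrease was not tested, and in bulk RNA fewer cells of a type and less RNA per cell cannot be told apart.

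**Figure D4:**
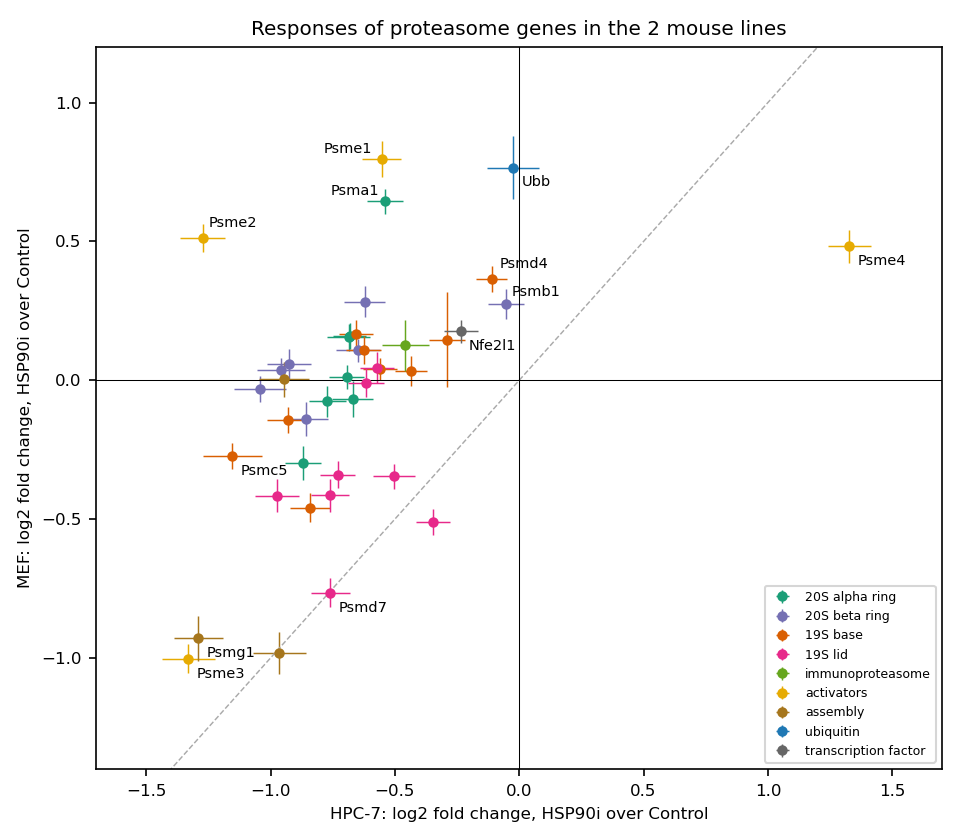
Log2 fold change (HSP90i over Control) of each member in MEF (vertical axis) against HPC-7 (horizontal axis), coloured by role, with standard errors and a dashed line of equal change, for the 41 members tested in both lines. Most points lie left of 0 and spread above and below 0 vertically. Psme4 is at the far right, and Psme3, Psmg1 and Psmg2 are at the lower left.

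Genes that work beside the proteasome were read from 4 lists. Of the ubiquitin and conjugating enzyme list, 2 rose and 0 fell of 11 tested in K562, 2 rose and 5 fell of 10 in MEF, and 1 rose and 6 fell of 10 in HPC-7. Beside this and the next lists, 5.11% of all genes rose and 5.97% fell in K562, 35.1% and 38.2% in MEF, and 36.5% and 36.6% in HPC-7. With 7 to 16 genes in a list, several counts lie near these shares. Among conjugating enzymes, UBE2D3 rose by 0.52 in K562, Ube2k, Ube2n and Ube2d1 fell by 0.41, 0.39 and 0.26 in MEF, and Ube2n, Ube2k and Ube2l3 fell by 1.15, 0.74 and 0.68 in HPC-7. Uba1, the activating enzyme, fell by 0.50 in HPC-7.

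Of other proteins that assemble or bind the proteasome, 2 of 15 tested fell and 0 rose in K562, 7 of 14 fell and 3 rose in MEF, and 7 of 14 fell and 1 rose in HPC-7. The assembly chaperone gene PSMG3 was called lower in each line, at -0.95 ± 0.22 in K562 (adjusted p = 0.0319), -0.25 in MEF (adjusted p = 0.0346) and -0.67 ± 0.10 in HPC-7 (adjusted p = 0.000221). In K562, PSMG3 had 53.7, 58.1 and 49.6 CPM in HSP90i libraries, against 144, 88.4 and 79.0 CPM in Control libraries, where replicate 1 was again the highest. Its partner PSMG4 fell by 0.68 in K562. Uchl5, a deubiquitinase of the 19S particle, fell by 1.60 in HPC-7, where Shfm1, a small lid component, fell by 0.69 and Txnl1, a thioredoxin-like protein, by 0.65. In MEF, Ube3c, a ligase on the proteasome, fell by 0.86, Akirin2, a proteasome import factor, by 0.58, the base chaperone gene Psmd5 by 0.47 and the deubiquitinase gene Usp14 by 0.43.

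Of the shuttle factors and the p97 system, which bring ubiquitinated proteins to the proteasome, 3 of 16 rose and 0 fell in K562, 5 rose and 5 fell in MEF, and 4 rose and 9 fell in HPC-7. ZFAND2A (1.05), UBQLN1 (0.69) and the p97 gene VCP (0.46) rose in K562. The autophagy receptor gene Sqstm1 rose in both mouse lines, by 0.95 in MEF and 1.49 in HPC-7. The shuttle gene Ubqln4 fell in both, with log2 fold changes of -1.72 in MEF and -1.08 in HPC-7. In MEF, Ubqln2 fell by 0.59. In HPC-7, Rad23b fell by 1.01 and Zfand5, which stimulates the proteasome, rose by 0.73.

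Of the antigen presentation genes, which use the peptides that the proteasome makes, 5 of 7 rose and 0 fell in MEF, where Psme1, Psme2 and the counts of Psmb8 and Psmb9 were also higher. The peptide transporter genes Tap1 and Tap2 rose by 2.14 ± 0.21 and 1.83 ± 0.19 on the log2 scale, Tapbp by 0.89 and B2m by 0.44. Tap1 had 8.8, 8.5 and 8.8 CPM in MEF HSP90i libraries, against 1.9, 2.8 and 1.2 CPM in Control libraries. Macrophage markers also rose in MEF, to between 10.1 and 12.5 CPM in HSP90i libraries, against 5.23 to 6.03 CPM in Control libraries. Epithelial markers summed to between 6.28 and 6.85 CPM in MEF HSP90i libraries, against 1.42 to 1.62 CPM in Control libraries, and 2 of 2 tested rose in each list. Their part in these results was not tested. In HPC-7, 3 of 8 rose, Tap2 (0.87), Tapbp (0.70) and Tap1 (0.65), and 3 fell, with Erap1 at -0.98. In K562, 1 of 7 fell, the transcription factor gene IRF1 at -0.67, and 0 rose.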

How the data were processed

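The deposited RNA-seq tables hold raw counts for each gene, made by the authors. TopHat2 2.0.13, featureCounts, Trim Galore, Picard, Bowtie2, MACS2 and DESeq2 are named per the submitters' processing notes, with no role for any. Strand use and the build behind the K562 counts are not given in the sources used here. K562 positions are therefore left out. Control samples were matched by line and replicate number to columns named for DMSO, and 0 other columns of sample values were present.

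Within each line, genes were filtered with filterByExpr, scaled with TMM and tested with the quasi-likelihood test of edgeR 4.0.16 in R 4.3.3, with Benjamini-Hochberg adjustment over all genes tested and a threshold of 0.05. An interaction term over 12 libraries compared the mouse lines. K562 lists 16 extra rows sharing a member's symbol, 1 of them with counts, and the row with the most counts was used. Procedures were tested on simulated data.

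The members and lists were chosen with earlier results of these data known. Per-library values are given for PSMB8, PSMB9, PSMB10, POMP, UBB and NFE2L1, for up to 5 other members per line and direction (the largest changes among called members whose average log2 CPM was 3 or more), and for up to 4 per sign of the interaction. Other values were picked after they were seen. Pathway lists name up to 4 called genes with the smallest p, and PSMG3 beyond that. Some genes chosen by this rule are not reported here. Mouse promoter windows and positions come from RefSeq GRCm38.p6.

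Alternatives were other scaling factors (RLE, upper quartile, library size alone), no filter, at least 1 CPM in 3 libraries, DESeq2 1.42.0, a replicate block, a joint mouse fit and leaving out each library. The HSP90 peak list was not analysed here, and its planned overlap with member promoters was not run. Figures were drawn with matplotlib 3.10.9.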

Additional observations from a re-analysis of the deposited data

Results flagged for a closer look

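The members below had responses that differed between MEF and HPC-7 in edgeR's interaction test. The values are that test's estimates of the MEF response minus the HPC-7 response on the log2 scale. These estimates come from a joint fit of the mouse libraries, and are not exact differences of the fold changes given for each line. In the alpha ring they were Psma1 at 1.30, Psma2 at 0.81, Psma3 at 0.72, Psma4 at 0.69, Psma5 at 0.96, Psma6 at 0.82 and Psma7 at 0.96. In the beta ring they were Psmb1 at 0.44, Psmb2 at 0.84, Psmb3 at 1.11, Psmb4 at 1.02, Psmb5 at 1.13, Psmb6 at 0.87 and Psmb7 at 1.10. Among the inducible subunits the difference was 0.70 for Psmb10, and Psmb8 and Psmb9 are left out because they did not pass the filter in MEF.

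In the 19S base the differences were 0.94 for Psmc1, 0.58 for Psmc2, 0.85 for Psmc3, 0.91 for Psmc4, 0.999 for Psmc5, 0.56 for Psmc6, 0.50 for Psmd1, 0.72 for Psmd2 and 0.59 for Psmd4. In the lid they were 0.73 for Psmd3, 0.74 for Psmd6, 0.47 for Psmd12, 0.51 for Psmd13 and 0.68 for Psmd14. Among activators they were 1.47 for Psme1, 1.90 for Psme2, 0.45 for Psme3 and -0.73 for Psme4. The remaining differences were 1.07 for Pomp, 0.48 for Psmg1, 0.91 for Ubb and 0.53 for Nfe2l1. All of these stand beside a shift of 0.11 over all genes, and line and dose cannot be told apart. The call of Psmc6 was lost under several of the alternatives given below.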

How the results depend on the processing

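No member reversed its direction among called values under any alternative run. In K562, 0 members were called higher with upper quartile factors, and leaving out 1 library at a time gave 0 to 9 called higher and 0 to 1 called lower, with 348 to 3917 genes called in all. Calls over all genes numbered 356, 348 and 418 without HSP90i replicates 1, 2 and 3, and 3917 and 569 without Control replicates 1 and 2. In MEF, leaving out 1 library gave 11 to 15 members higher and 12 to 13 lower, and other settings gave 12 to 18 higher and 11 to 13 lower. In HPC-7 these were 1 higher and 36 to 38 lower throughout. For the interaction, 32 to 39 of 43 members (Psmb8 and Psmb9 included) lay above and 1 to 2 below, the second being Psmd11 without any 1 HPC-7 Control library. In the interaction, Psmc6 was not called with RLE factors (adjusted p = 0.0825), library size alone (0.0737) or upper quartile factors (0.0654). Nor was it called with DESeq2 (0.0682), with the block (0.0588) or without any 1 HPC-7 Control library (0.235 to 0.269). Its call was also lost without MEF HSP90i replicate 1 (0.0518) or 3 (0.0764) and without HPC-7 HSP90i replicate 1 (0.0538). Psme3 was not called there with RLE factors (0.0573) or DESeq2 (0.0507), nor Psmg1 with DESeq2 (0.0612). In MEF, Psmb6 was not called with the block (0.0517).

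To compare libraries, each gene's log2 level was taken as its deviation from the mean of its group. These deviations cancel out within a group, so some correlations must be negative. Across the genes tested, deviations of same-numbered HSP90i and Control libraries correlated at 0.30, 0.04 and 0.47 in K562. They correlated at 0.31, -0.27 and -0.29 in MEF, and at -0.03, 0.02 and -0.12 in HPC-7. The deviations of HSP90i and Control libraries with different numbers correlated between -0.40 and 0.17 in K562 and between -0.36 and 0.44 in MEF. The main fits used no pairing, and whether the numbers mark a shared batch in K562 was not tested. With the replicate block, 1810 genes were called in K562 with 1 member higher and 1 lower, 8796 in MEF with 12 and 13, 8129 in HPC-7 with 1 and 37, and 5458 in the interaction with 37 and 1. With 3 libraries per group, edgeR's biological coefficient of variation was 0.172 in K562 with Control replicate 1 included, against 0.0835 in MEF and 0.0900 in HPC-7. Part of this spread may be technical, and its part in the number of K562 calls was not tested.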

Other observations

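Across the 31 constitutive 20S and 19S subunits, the log2 fold changes in MEF and HPC-7 had a Pearson correlation of 0.41 and a Spearman correlation of 0.47, as a description across genes, which are not independent. Over the 10371 genes tested in both lines the values were 0.55 and 0.56. The order of the subunits in HPC-7 was therefore only partly that in MEF.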
